A study of Mus musculus with 12 samples.

Results

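Male and female mouse thymus were compared with the usual pairing of sex chromosomes and gonad turned around: XXsry males, which have an XX complement and Sry, were set against XY- females, which have an XY complement and no Sry. The comparison used 6 of the 12 thymus arrays of the series, 3 biological replicates of each of these groups, and every probe set whose log2 values averaged 5 or more across them. The mice were 7 to 8 weeks old, and cRNA made from 10 µg of total RNA per sample was hybridised to an Affymetrix mouse array. The other 6 arrays, from XY-sry males and XX females of the same age, hold the usual pairing and served as the comparison. Strain, the site and promoter of the Sry transgene, hormone levels and gonadectomy are not given in the sources used here. Gonad type, gonadal hormones and Sry itself cannot be told apart in these groups, and complement differs between them as well.

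Sry directs the embryonic gonad to become a testis. In mice of these 4 genotypes the Y chromosome, where present, lacks Sry, and only the male groups carry it, as a transgene. Testes can thus form with an XX complement and ovaries with an XY complement. In XX cells Xist RNA coats and silences 1 X chromosome, and a few X genes escape this silencing. The adult thymus is known to respond to gonadal hormones, and androgens shrink it. The thymus holds developing T cells, which pass through double-negative, double-positive and single-positive stages on a scaffold of epithelium and mesenchyme. RNA came from whole tissue, so fewer cells of a type and less RNA per cell cannot be told apart.

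A difference was called where limma, fitted to all 12 arrays, gave a Benjamini-Hochberg adjusted p under 0.05 over all 17951 probe sets tested. Array medians lay between 4.02 and 4.10. XY- female replicate 2 stood apart: on the first principal component, which carried 33.5% of the variance, it lay at 29.1 and the other 5 arrays of the comparison between -0.8 and 9.6. Its actin probe sets differed by 0.51 between the 3' and 5' ends, a measure that tracks RNA integrity. They differed by 0.69 and 0.68 in the other XY- females and by 0.71, 0.76 and 0.72 in XXsry males, so the groups did not overlap. The alternatives below include a fit with this difference as a covariate. The labels give thymus, and Satb1, a chromatin organiser of thymocytes, read 11.94 to 12.01 in XXsry males and 11.95 to 12.10 in XY- females.

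The sex-linked genes followed the labels in all 12 arrays. Sry read 6.95, 6.74 and 6.81 in XXsry males and 5.23, 5.55 and 5.65 in XY- females. XX females, which have no Y chromosome, read 5.33 to 5.39 on the same probe set, so the XY- values lay at background. The fitted difference was 1.36 ± 0.113 (log2, standard error, 3 arrays per group; limma adjusted p = 0.000204). Xist read 11.63, 11.63 and 11.59 in XXsry males and 3.50, 4.19 and 3.94 in XY- females, a log2 difference of at least 6.62 (adjusted p = 5.04e-10), measured against the limit of 5.

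The other Y genes averaged under 5 and were therefore read from a fit of all probe sets. Eif2s3y, the Y-linked subunit of translation initiation factor eIF2, read 8.17, 7.14 and 8.16 in XY- females and at most 2.26 in XXsry males, a difference of at least 2.82 (adjusted p = 1.12e-08). Kdm5d, a histone demethylase, was lower by at least 1.55 and Uty by at least 0.27 (adjusted p = 5.8e-10 and 2.11e-06). On the probe sets read here for Eif2s3y, Kdm5d and Uty, XY- female replicate 2 was the lowest of its group. It was the highest on a dimmer probe set of Kdm5d, at 4.15, and on one of Uty, at 4.22.

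Of 13 measured genes on a list of X genes that escape silencing, 5 were higher in XXsry males and 0 were lower, and the list median was 0.23. Over all 9487 genes, each read by its brightest probe set, 71 (0.748%) were called higher and 32 (0.337%) lower, with a median of 0.03. Eif2s3x, the X-linked partner of Eif2s3y, read 8.52, 8.44 and 8.50 in XXsry males and 7.81, 7.90 and 7.93 in XY- females, and rose by 0.61 ± 0.053 (adjusted p = 0.000264). Kdm5c, a histone demethylase, rose by 0.36 ± 0.069 on its brightest probe set, which the list count uses, and by 0.61 ± 0.061 on another (adjusted p = 0.0383 and 0.000759). Kdm6a, another, rose by 0.41 ± 0.066 on its brighter probe set, and the increase of Pbdc1 was 0.42 ± 0.069 (adjusted p = 0.0157 and 0.0166). XXsry arrays lay above every XY- array for each of these. The 8 other members lay between -0.31, for the matrix proteoglycan Bgn, and 0.49, for 5530601H04Rik, and did not pass (adjusted p = 0.0891 and 0.128 for these). The brightest probe sets of Kdm5c, Kdm6a and Pbdc1 were not called from the 6 arrays alone, and that of Kdm5c was not called without XY- female replicate 2.

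**Figure D1:**
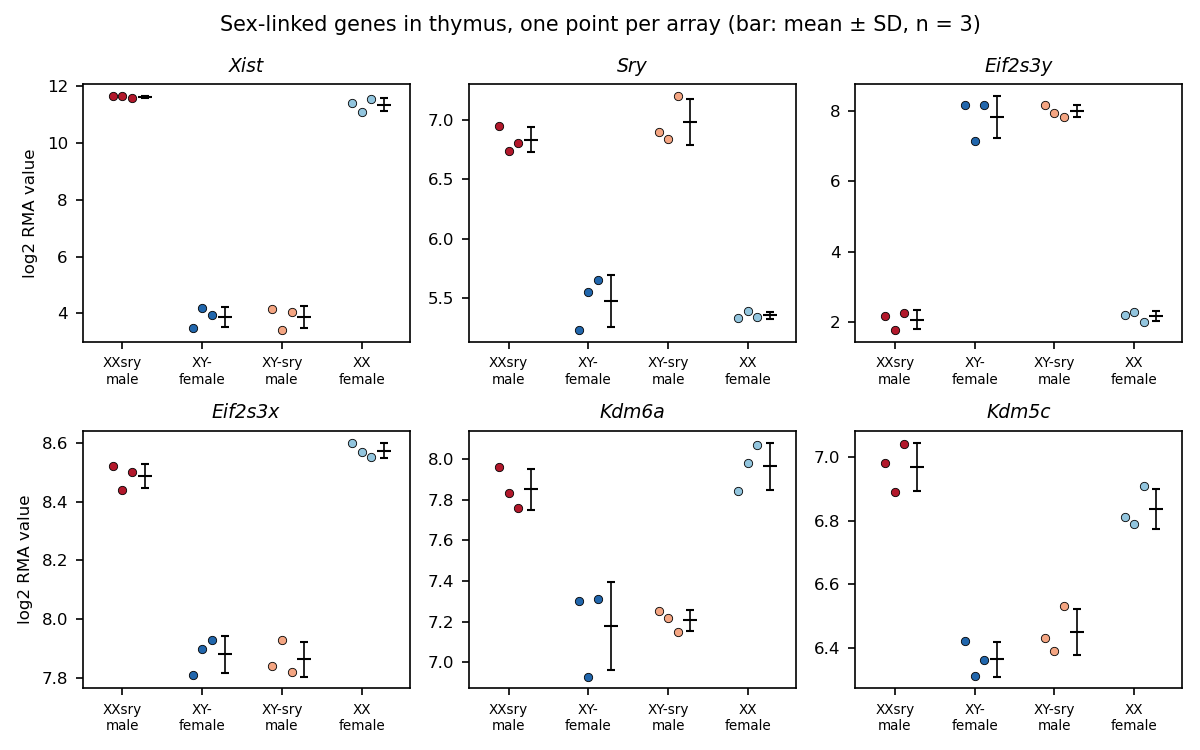
Log2 RMA values of 6 sex-linked genes on every array, with the group mean ± SD (n = 3) beside the points. Xist, Eif2s3x, Kdm6a and Kdm5c are high in both XX groups, Eif2s3y is high in both XY groups, and Sry is high in both male groups, with XY- females at 5.23 to 5.65.

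The rest of the X chromosome showed few differences. Outside the escape list, 428 X-linked probe sets had a median difference of 0.017, beside 0.023 over autosomal probe sets, and 3 were called: Cxcr3, described with the chemokine receptors, and Haus7 and Timm8a1. These last genes, a spindle protein and a mitochondrial import protein that were named after their values were seen, rose by 0.23 ± 0.046 and 0.36 ± 0.073 (adjusted p = 0.0415 and 0.0456). Both lost the call in the fit without XY- female replicate 2.

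In all, 169 of 17951 probe sets (0.941%) were called: 118 (0.657%) were higher in XXsry males and 51 (0.284%) lower. Of these, 135 were autosomal, 94 higher and 41 lower, and 14 were on X. Another 18 had no single gene name, 10 of them because several genes share the probe set. The median size of an autosomal difference was 0.463 on the log2 scale, 37 reached 1.5-fold in the fit, and the largest were Igfbp5, Cxcr6 and Klrd1, the last 2 with XXsry means under 5. The 95% interval lay within 0.5 of 0 for 92.8% of autosomal probe sets. The count depends on the arrays that set the error: the 6 arrays alone gave 27 calls, 26 of them among the 169. Without XXsry male replicate 2 or 3, without XY- female replicate 1, or without XX female replicate 1 or 2 it was 49, 57, 90, 106 or 110. Without XY- female replicate 2 it was again 169, with 105 shared, but now 88 higher and 81 lower. Of 72 called genes or probe sets examined singly, 47, 32 and 33 kept the call without XXsry male replicate 1, 2 and 3, and 44, 56 and 49 without XY- female replicate 1, 2 and 3. In the 6 arrays alone 19 kept it, among them Igfbp5, Kcnk2, Fgfr2, Ltbp3, Slc46a2, Cxcr6, Cxcr3 and Cd7.

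The largest autosomal rise was that of Igfbp5 (chromosome 1, 72858065-72874865, GRCm38.p6), a secreted protein that binds insulin-like growth factors. It read 9.44, 9.22 and 9.24 in XXsry males and 7.64, 7.39 and 7.92 in XY- females, with no overlap. The difference was 1.65 ± 0.136, or 3.14-fold (adjusted p = 0.000204). It was the 1 member called of 7 measured genes of the insulin-like growth factor axis, whose median was 0.06. Set side by side, the differences for Sry within a complement were 1.87 in XX and 1.54 in XY-, and those for XX minus XY- were -0.22 in females and 0.11 in males. These 4 values share arrays with the main comparison.

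Kcnk2 (chromosome 1, 189207930-189402782), a background potassium channel, read 6.49, 6.29 and 6.27 in XXsry males and 5.51, 5.19 and 5.45 in XY- females, a rise of 0.97 ± 0.092 (adjusted p = 0.000562). Nqo1, a quinone reductase and a standard target of the antioxidant factor Nrf2, read 6.47, 6.45 and 6.56 against 5.57, 5.44 and 5.90. It rose by 0.86 ± 0.104 (adjusted p = 0.00261). Neither gene's groups overlapped. Of 10 measured Nrf2 genes Nqo1 was the 1 called, and their median was 0.08. Snhg11, a host transcript of small nucleolar RNAs, and Cbr2, a carbonyl reductase, rose by 0.94 ± 0.172 and 0.65 ± 0.078 (adjusted p = 0.029 and 0.00261). Snhg11 lost its call without XY- female replicate 2.

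Genes of the thymic stroma were among the higher calls. Fgfr2, the receptor through which mesenchymal fibroblast growth factors act on thymic epithelium, read 6.12, 6.09 and 6.20 in XXsry males and 5.46, 5.54 and 5.30 in XY- females. It rose by 0.70 ± 0.075 there and by 0.60 ± 0.073 on another probe set (adjusted p = 0.00104 and 0.00261). Slc46a2, a transporter named for its expression in thymic stroma, read 8.38, 8.39 and 8.38 against 7.66, 7.46 and 7.70, and rose by 0.78 ± 0.102 (adjusted p = 0.00461). The 3 XXsry arrays lay within 0.01 of each other and above every XY- array.

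Isl1, a LIM-homeodomain transcription factor, rose by 0.57 ± 0.068 and 0.64 ± 0.118 on its probe sets (adjusted p = 0.00261 and 0.0309). Of 18 measured genes of cortical thymic epithelium, 16 had a positive difference, beside 5823 of all 9487 genes. Isl1 and Slc46a2 were called higher and 0 lower, and the median was 0.15. The other 16 lay between -0.13 and 0.49 and did not pass. Medullary epithelium had 0 of 10 genes called by limma, 3 with an unadjusted p under 0.05, and a median of -0.05. Trp63, the transcription factor of epithelial progenitors, which was singled out after its values were seen, rose by 0.63 ± 0.095 (adjusted p = 0.0095). It was called from the 6 arrays alone, but not with the actin difference as a covariate or without XXsry male replicate 3.

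Matrix and growth factor genes moved in both directions. Ltbp3, which holds latent TGF-beta in the matrix, read 6.10, 5.98 and 5.95 in XXsry males and 5.32, 5.35 and 5.48 in XY- females. It rose by 0.63 ± 0.075 (adjusted p = 0.00261). Fn1, which encodes fibronectin, rose by 0.76 ± 0.098 and the co-receptor Tgfbr3 by 0.31 ± 0.064 (adjusted p = 0.00401 and 0.0484).

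Lower in XXsry males were Timp3, an inhibitor of matrix proteases, and the metalloprotease Adam12. Timp3 fell by 0.55 ± 0.078 and Adam12 fell by 0.63 ± 0.086 (adjusted p = 0.00728 and 0.00501). Timp3 read 5.25, 5.26 and 5.24 against 5.61, 5.91 and 5.87. Postn, which encodes the matrix protein periostin, fell by 0.55 ± 0.112 (adjusted p = 0.0446). Of 12 measured fibroblast and matrix genes, 2 were called higher, 1 lower and 9 did not pass, and the median was -0.03. For 16 TGF-beta pathway genes the counts were 2 and 0, with a median of 0.03. Tgfbr3 and Postn were not called without XY- female replicate 2.

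**Figure D2:**
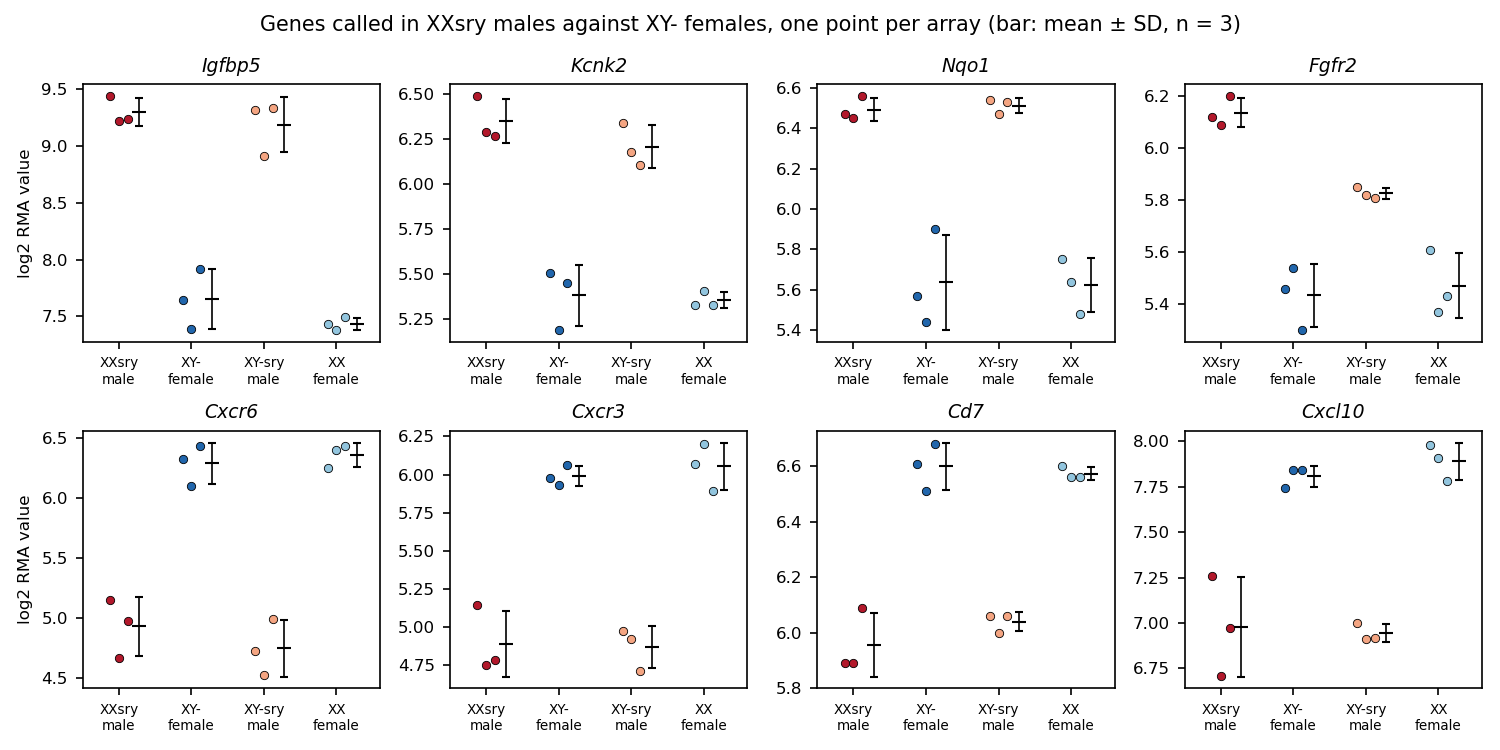
Log2 RMA values of 8 called genes, 7 autosomal and the X-linked Cxcr3, on each of the 12 arrays, with the group mean ± SD (n = 3). The upper row shows genes that are higher in XXsry males than in XY- females and the lower row genes that are lower; in every panel the 6 male arrays do not overlap the 6 female arrays.

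Among called probe sets with 1 gene name, the 3 with the largest fitted falls were receptors of innate-like T and natural killer cells. Cxcr6 (chromosome 9, 123806477-123811754), the receptor for Cxcl16 carried by tissue-resident and innate-like T cells, read 5.15, 4.66 and 4.97 in XXsry males and 6.33, 6.10 and 6.44 in XY- females. It was lower by at least 1.24 (adjusted p = 0.000797), a bound because the XXsry mean lay under 5. The X-linked receptor Cxcr3 (chromosome X, 101731535-101734147) read 5.14, 4.75 and 4.78 against 5.98, 5.93 and 6.06, lower by at least 0.94 (adjusted p = 0.000759). Every XXsry array lay below every XY- array for both genes.

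Klrd1, which encodes the natural killer receptor chain CD94, read 4.72, 4.35 and 4.64 in XXsry males and 6.13, 5.14 and 6.25 in XY- females. It was lower by at least 0.84 (adjusted p = 0.0268), and XY- female replicate 2, at 5.14, was the lowest of its group. Nkg7, a cytotoxic granule protein, fell by 0.61 ± 0.090 and the cathepsin Ctsw fell by 0.59 ± 0.091 (adjusted p = 0.0095 and 0.0118). Of 7 measured genes on the innate-like T and natural killer list, 4 were called lower and 0 higher, and the median was -0.61. The mean of the 7, centred over the 12 arrays, was -0.25, -0.48 and -0.32 in XXsry males and 0.35, 0.10 and 0.48 in XY- females. The list has 15 genes on the array. Cxcr6, Klrd1 and Cxcr3 averaged under 5 in XXsry males and passed the filter through their XY- female levels. The filter therefore had a part in this count, median and mean. Il2rb, the beta chain of the receptors for IL-2 and IL-15, named after its values were seen, was lower by at least 0.33 on 1 probe set (adjusted p = 0.0463).

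Cd7, a surface protein of T and natural killer cells, read 5.89, 5.89 and 6.09 in XXsry males and 6.61, 6.51 and 6.68 in XY- females. It fell by 0.64 ± 0.065 (adjusted p = 0.000759). Id2, which blocks E proteins and is needed for innate lymphoid lineages, read 7.75, 7.60 and 7.65 against 8.14, 8.12 and 8.27, and fell by 0.51 ± 0.062 (adjusted p = 0.00261). The groups of neither gene overlapped. The integrin chain Itgae, singled out after its values were seen, fell by 0.49 ± 0.101 (adjusted p = 0.0458) and was not called without XY- female replicate 2.

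Cxcl10, an interferon-induced chemokine and a ligand of Cxcr3, read 7.26, 6.71 and 6.97 in XXsry males and 7.74, 7.84 and 7.84 in XY- females. It fell by 0.83 ± 0.110, or 1.77-fold (adjusted p = 0.00461). Among 14 measured chemokines and receptors, Cxcr3, Cxcr6 and Cxcl10 were called lower and 0 higher, and the median was -0.29. The other 11 lay between -0.57 and 0.24. Cxcr3 and Cxcr6 passed the filter through their XY- female levels, which bears on this count and median too. Of 24 measured interferon response genes Cxcl10 was the 1 called, 1 of 24 had a positive difference, 13 had XXsry arrays all below the XY- arrays, and the median was -0.21. Over all probe sets, 5.31% did not overlap in that direction, and 5823 of all 9487 genes had a positive difference. Outside that list, and named after their values were seen, the interferon-inducible genes Ifi213, Slfn1 and Gbp6 fell by 0.75 ± 0.127, 0.73 ± 0.128 and 0.41 ± 0.076 (adjusted p = 0.0209, 0.024 and 0.0292).

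The core letters of the interferon-stimulated response element, GAAANNGAA, were searched on both strands of the 250 bases before the start given for each gene in the RefSeq promoter table, GRCm38.p6. Cxcl10 and Ifi213, the interferon-inducible genes among those called lower that held them, are shown because they carry the motif in capitals, 5′ to 3′ on the gene's strand, which is the minus strand for both. It lies 204 bases before the start in Cxcl10. In Ifi213 it lies 64 bases before the transcript start that the promoter table uses, which is inside the full RefSeq span of the gene (chromosome 1, 173566280-173599348), so the motif is within the annotated gene there. The regions are chr5:92348890-92349139 and chr1:173599273-173599522.
Cxcl10: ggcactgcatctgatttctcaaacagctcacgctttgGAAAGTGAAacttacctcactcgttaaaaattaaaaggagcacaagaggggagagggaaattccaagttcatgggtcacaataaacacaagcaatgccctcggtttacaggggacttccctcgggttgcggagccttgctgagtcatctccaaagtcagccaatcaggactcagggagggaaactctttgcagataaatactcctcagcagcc
Ifi213: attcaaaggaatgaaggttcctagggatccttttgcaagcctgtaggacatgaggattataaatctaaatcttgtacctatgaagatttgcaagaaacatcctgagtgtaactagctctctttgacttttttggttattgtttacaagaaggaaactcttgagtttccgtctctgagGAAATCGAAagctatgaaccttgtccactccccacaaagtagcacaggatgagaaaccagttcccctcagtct

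The motif lay in the promoters of 2211 of 27025 genes (8.18%). Of the 39 genes called lower, 27 had a promoter in the table and 4 held the motif (14.8%): Cxcl10, Ifi213, Postn and Tnfrsf4. Of the 90 called higher, 73 had a promoter and 4 held it (5.48%). On the interferon list it was in 11 of 19 promoters (57.9%). A match is a run of letters and was not tested as a binding site.

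Other immune genes fell as well. Ubd, an interferon-inducible ubiquitin-like modifier, read 9.63, 9.28 and 9.49 in XXsry males and 10.15, 10.08 and 10.36 in XY- females, and fell by 0.73 ± 0.089 (adjusted p = 0.00269). The class I-like gene H2-T24 fell by 0.45 ± 0.060 and the membrane protein gene Ms4a4b fell by 0.46 ± 0.094 (adjusted p = 0.00461 and 0.0434). These were the 2 called, both lower, of 20 measured genes of mature single-positive thymocytes, whose median was -0.17. Differences were positive for 2 of the 20, beside 5823 of all 9487 genes. The class I and peptide loading list had 1 of 15 called, H2-T24, and a median of -0.10. The abundant class II gene H2-Aa was -0.06 ± 0.062 (adjusted p = 0.675).

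Markers of regulatory T cells divided. The costimulatory receptors Icos and Tnfrsf4 fell by 0.58 ± 0.093 and by 0.38 ± 0.071 (adjusted p = 0.0143 and 0.0333). Il2ra, the IL-2 receptor alpha chain of regulatory and double-negative cells, read 6.12, 6.33 and 6.34 in XXsry males and 5.58, 5.42 and 5.51 in XY- females. It rose by 0.76 ± 0.133 (adjusted p = 0.024). The list of 11 had 1 called higher, 2 lower and a median of -0.19. Without XY- female replicate 2, Il2ra and Tnfrsf4 were not called.

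Members of the double-negative list ran from -0.50 to 0.76. Il2ra and Notch3, a Notch receptor of double-negative cells, were the 2 called of 10 measured double-negative genes, with a median of 0.21. Differences were positive for 6 of the 10, beside 5823 of all 9487 genes. Notch3 read 6.12, 6.21 and 6.13 against 5.74, 5.48 and 5.71 and rose by 0.51 ± 0.102 (adjusted p = 0.0413), but it was not called without XY- female replicate 2. Jag2, a Notch ligand, rose by 0.38 ± 0.062 (adjusted p = 0.0151). Of 15 Notch pathway genes 2 were called higher, 0 lower, and the median was 0.19. Hey1, a Notch target named after its values were seen, rose by 0.46 ± 0.061 (adjusted p = 0.00461).

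Replication genes showed small positive differences. All 20 measured S-phase genes lay between 0.08 and 0.31, with a median of 0.19. Over all 9487 genes, 5823 had a positive difference and the median was 0.03. Ung, a uracil DNA glycosylase, was the 1 called, at 0.31 ± 0.064 (adjusted p = 0.0496), and was not called without XY- female replicate 2. Mitosis and G2 genes had 0 of 19 called by limma, 0 with an unadjusted p under 0.05, and a median of 0.05. The main thymocyte population showed no called gene on its list: 0 of 17 double-positive genes by limma, 1 with an unadjusted p under 0.05, and a median of -0.03.

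The glucocorticoid response list had 1 of 17 genes called. Fkbp5, a chaperone that glucocorticoids and androgens both induce, read 9.74, 9.79 and 9.78 in XXsry males and 9.45, 9.47 and 9.30 in XY- females, and rose by 0.36 ± 0.072 (adjusted p = 0.0407). The list median was -0.05. Of single genes past the threshold, Ptgs2, the inducible cyclooxygenase, was lower by at least 0.46 (adjusted p = 0.0143), and Ttc39a fell by 0.47 ± 0.065 (adjusted p = 0.0057). Csn2, a milk casein that medullary epithelium expresses ectopically, fell by 0.62 ± 0.120 (adjusted p = 0.0383) and was not called without XY- female replicate 2.

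Markers of cell types that a dissected thymus can carry along differed between arrays. The neutrophil genes S100a8 and S100a9 had the largest autosomal differences, -1.77 ± 0.542 and -1.87 ± 0.639, but did not pass (adjusted p = 0.159 and 0.203). S100a8 read 5.93, 5.60 and 7.44 in XXsry males and 7.77, 7.51 and 9.01 in XY- females, so the lowest XY- array lay just above the highest XXsry array. None of 7 measured neutrophil genes was called by limma, 4 had an unadjusted p under 0.05, and their mean ranged from -0.99 to 0.05 in XXsry males and from 0.05 to 1.34 in XY- females. Like the lower immune genes, these genes had negative differences. Within XY- females their mean and that of the innate-like T and natural killer list were both highest in replicate 3 and lowest in replicate 2. Within XX females the neutrophil mean fell from 0.65 to -0.13 from replicate 1 to 3, while the other stayed at 0.39 to 0.41. The part of neutrophils in those results was not tested.

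B and plasma cell genes had 0 of 8 called by limma, 3 with an unadjusted p under 0.05, and a median of -0.23. Their mean ranged from -0.24 to 0.15 in XXsry males and from 0.02 to 0.20 in XY- females. Fat genes had 0 of 6 called and 0 with an unadjusted p under 0.05, and their mean was 0.92 in XXsry male replicate 2 against -0.71 and -0.09 in the other XXsry males. The parathyroid hormone gene Pth read 7.07, 7.13 and 6.99 against 6.19, 5.97 and 6.42, a difference of 0.87 ± 0.253 that did not pass (adjusted p = 0.141). The part of these cells in the other results was not tested.

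**Figure D3:**
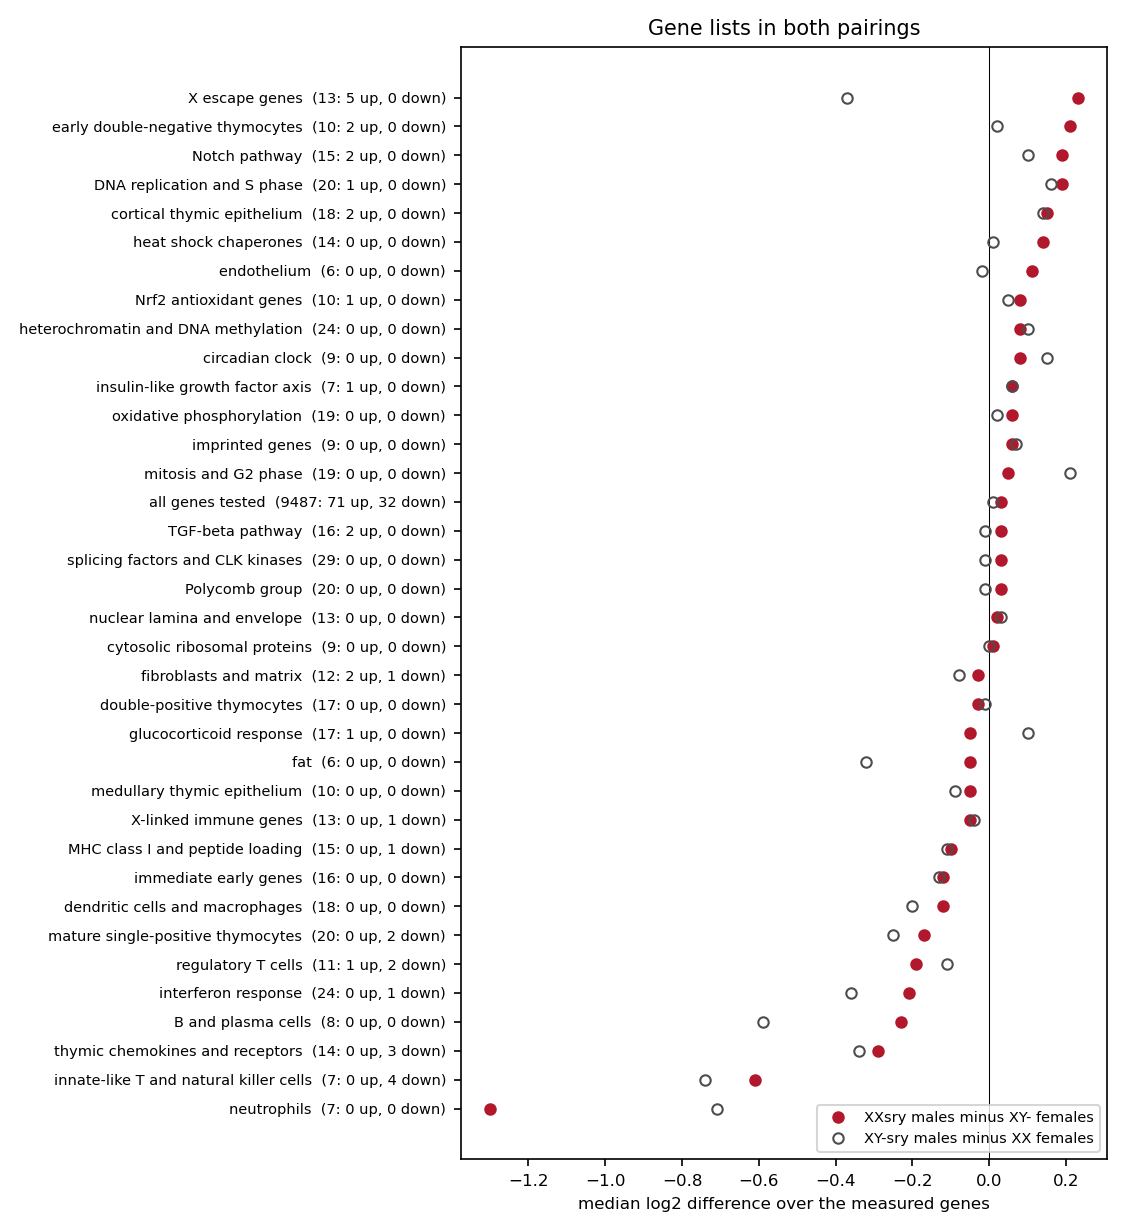
Median log2 difference over the measured genes of 35 gene lists with at least 5 measured genes, and of all 9487 genes, in XXsry males minus XY- females (filled) and in XY-sry males minus XX females (open). The labels give the number measured and the numbers called higher and lower in the first comparison; innate-like T and natural killer genes lie at -0.61 and -0.74, and X escape genes at 0.23 and -0.37.

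The usual pairing of XY-sry males and XX females shares no array with this comparison, though both use 1 pooled estimate of the spread. It gave 241 calls (1.34%), 103 higher in males (0.574%) and 138 lower (0.769%). Of the 135 autosomal probe sets called here, 59 were called there too, all in the same direction. They are 43.7% of the autosomal calls here and 30.1% of the 196 in the usual pairing. All 135 had the same sign in the usual pairing, where 117 had an unadjusted p under 0.05, while 68.8% of all autosomal probe sets had the same sign in both. Pearson's r was 0.648 over the autosomal probe sets, which are not independent and were measured on the same kind of array.

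Single genes were read in the usual pairing as well. Igfbp5 was 1.76 ± 0.136 higher in XY-sry males than in XX females, Kcnk2 0.85 ± 0.092 and Nqo1 0.89 ± 0.104 (adjusted p = 7.6e-05, 0.0011 and 0.00157). Cxcr6 and Cxcr3 were lower there by at least 1.36 and 1.05, and Cxcl10 fell by 0.95 ± 0.110 (adjusted p = 0.000179, 0.000341 and 0.00157). The autosomal probe sets called higher here had a median ratio of usual to reversed difference of 0.64, and those called lower 0.98. The probe sets were chosen on the reversed difference, by which the ratio divides, so selection alone can bring ratios under 1. The balance of calls also changed without XY- female replicate 2, to 88 higher and 81 lower. Notch3, at 0.51 here, was 0.11 ± 0.102 in the usual pairing, Ung 0.08 ± 0.064 and Il2ra 0.37 ± 0.133, none of which passed (adjusted p = 0.653, 0.596 and 0.197). Their differences between the pairings were 0.40 ± 0.144, 0.23 ± 0.090 and 0.39 ± 0.188, and did not pass either (limma adjusted p = 0.998 for each). None of these 3 genes was called here without XY- female replicate 2. XX females read 6.02, 6.09 and 5.97 for Notch3, above the 3 XY- females.

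**Figure D4:**
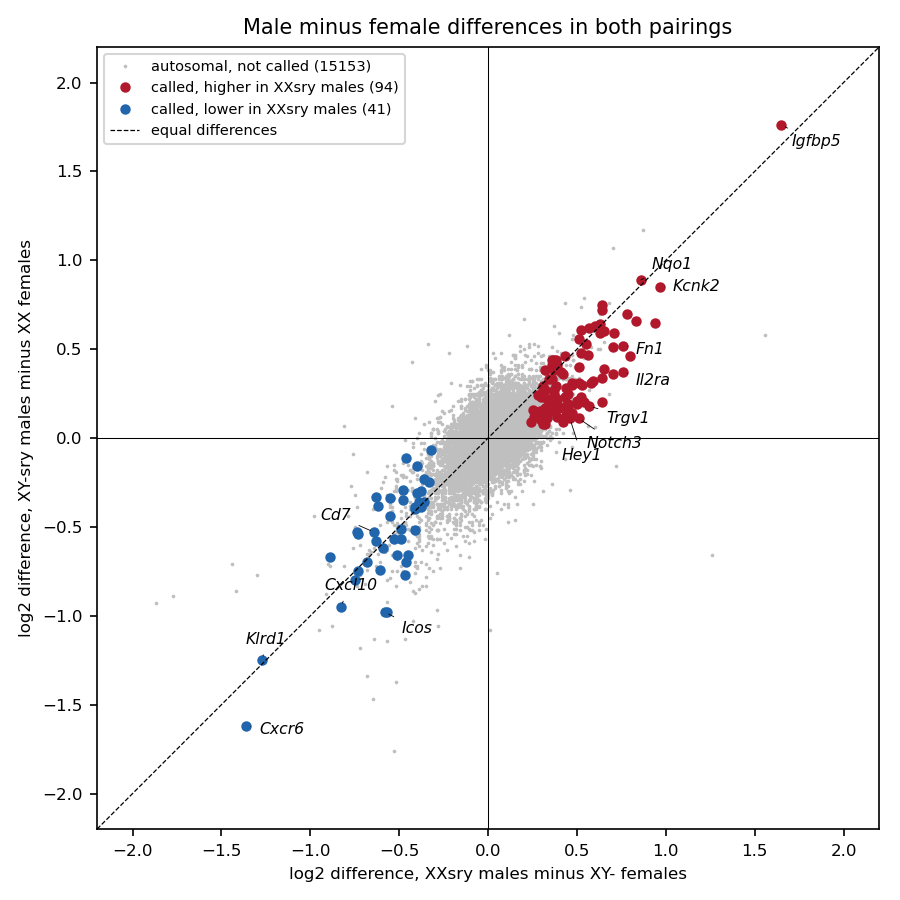
Log2 differences of autosomal probe sets in XXsry males minus XY- females (horizontal) and in XY-sry males minus XX females (vertical), with the 94 called higher and the 41 called lower in the first comparison in colour and the line of equal differences dashed. All coloured points lie in the quadrants of equal sign, from Cxcr6 at the lower left to Igfbp5 at the upper right.

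The difference between the pairings was tested directly, as the reversed minus the usual male minus female difference. By construction this equals the sum of XX minus XY- in females and in males, so it measures complement and not whether Sry acts differently in each complement. In that test 14 probe sets (0.0780%) were called, 12 higher (0.0668%) and 2 lower (0.0111%) in the reversed pairing. The named ones were Xist, Eif2s3x, Kdm6a, Kdm5c, Pbdc1 and Pisd-ps3. No autosomal probe set of 15288 was called by limma, 606 had an unadjusted p under 0.05, and the smallest autosomal adjusted p was 0.203, for a probe set of Fgr. Array weights gave 6 autosomal calls, and 1 was made with the actin difference as a covariate or without XY- female replicate 2. Of the 135 autosomal calls, 35 had an unadjusted p under 0.05 for the difference. The median standard error of the difference was 0.108, against 0.076 for either comparison. With 3 arrays per group, a difference between pairings was thus harder to detect than one of the same size in either comparison.

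Among the named calls Pisd-ps3, a pseudogene copy of a gene for a phospholipid-making decarboxylase, had no chromosome in the gene table. It read 8.47, 8.83 and 8.67 in XXsry males and 7.62, 8.12 and 7.77 in XY- females, and rose by 0.82 ± 0.130 (adjusted p = 0.0143). In the usual pairing it was -0.43 ± 0.130 (adjusted p = 0.135), with XX females at 8.77, 8.74 and 8.71. Related copies can share its probes, so the source of the signal is uncertain.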

How the data were processed

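Thymus RNA of 12 mice was measured on Affymetrix arrays. The authors deposited log2 values from RMA (version not stated here), per the submitters' processing notes. RMA normalises arrays to a common distribution and compresses low signals, so where a group mean lay under 5 the difference is given as a bound against 5 or against the group's own values. The array holds 45101 probe sets: 64 controls were dropped and 27086 averaged under 5. Of 34958 with 1 gene symbol in the platform table, 34754 matched RefSeq by Entrez ID; 9211 had no name and 932 several.

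limma 3.58.1 in R 4.3.3 fitted the group means of all 12 arrays (8 residual and 3.64 prior degrees of freedom), and p-values measure only the spread between these samples. The comparison, the lists and the genes to be named were chosen with earlier results of these data known, and no list was tested as a set. Of 41 lists, 35 had at least 5 measured genes and are drawn; 1 further list was added after values were seen. Named in each direction were the 12 genes lowest in p, the 8 autosomal ones lowest in p and the 5 largest, the 6 in each direction called in both pairings or in their difference, the list members called (up to 4 in each direction) or, failing that, the 2 brightest, and all Y and escape list members. Not every such gene is printed, and others are marked.

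In simulated data with 200 of 17951 probe sets changed, the comparison recovered 3.50%, 88.0% and 99.5% at log2 differences of 0.3, 0.5 and 1. Of its calls there, 0 of 7, 6 of 182 and 10 of 209 were false. The test of the difference recovered 0.500%, 40.0% and 95.0%. The real arrays were unequal, with array weights from 0.20 for XY- female replicate 2 to 7.02 for XY- female replicate 1. Whether the simulated rates hold for the real arrays was not tested. Alternatives covered the filter, centring, normalization, an intensity trend, array weights, an actin covariate, a fit of only the groups compared, a block for the replicate number, thresholds and each array left out. Figures used matplotlib 3.10.9.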

Additional observations from a re-analysis of the deposited data

Results flagged for a closer look

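In 14 probe sets the male minus female difference was not the same in the reversed pairing (XXsry minus XY-) as in the usual one (XY-sry minus XX), by limma's test of the difference itself. By construction the reversed minus usual difference is the sum of XX minus XY- in females and in males. For Xist its fitted value was 15.22 on 1 probe set and 10.30 on another. These sizes rest on XY arrays at 4.19 or less: against the limit of 5, Xist was higher in XXsry males than in XY- females by at least 6.62 and 2.97, and lower in XY-sry males than in XX females by at least 6.35 and 2.60. Eif2s3x gave 1.32, 1.07 and 1.06 on its 3 probe sets, Kdm6a 1.43 and 1.22, and Kdm5c 0.99, 0.82 and 0.72. Pbdc1 gave 0.80 and Pisd-ps3 1.25 (adjusted p = 0.00635 and 0.03). Another 2 probe sets, which the platform table does not name, had fitted values of -13.33 and -11.00, which rest on XX arrays at 2.61 or less. Against the limit of 5 they were lower in XXsry males than in XY- females by at least 3.68 and 2.84, and higher in XY-sry males than in XX females by at least 3.73 and 2.95.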

How the results depend on the processing

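Of 72 called genes or probe sets examined singly, 0 changed direction under 26 alternatives. Among their values, 1420 of 1825 kept the call and 405 lost it. Direction could change only with centring, quantile normalization, array weights, the actin covariate or an array of the groups compared left out. The other alternatives leave the fitted difference as it is, and an adjusted p under 0.1 cannot lose a call. The 169 calls of the comparison became 4234 with array weights, which gave XY- female replicate 1 a weight of 7.02 and replicate 2 one of 0.20. They became 27 with only the groups compared and 109, 76 of them shared, with the actin covariate. The count was 404 at an adjusted p under 0.1 and 78 where a log2 size of 0.5 was required. The 241 calls of the usual pairing became 379 with an intensity trend, 1171 with array weights, 634 at an adjusted p under 0.1 and 112 with that size required. The 14 calls of the difference between pairings became 26 with no filter, 29 with array weights, 6 with 1 probe set per gene and 0 with autosomal probe sets alone (limma; 606 at an unadjusted p under 0.05). The 66 calls shared in direction became 108 with an intensity trend, 540 with array weights, 14 with only the groups compared, 157 at an adjusted p under 0.1 and 35 with that size required. Leaving out each array in turn gave 49 to 212 calls for the comparison, 63 to 634 for the usual pairing, 11 to 20 for the difference and 26 to 95 shared. The share of calls that were higher was 69.8%, and 52.1% without XY- female replicate 2; the highest count of the usual pairing, 634, also came without that array. Of the 72, the fewest kept the call in the 6 arrays alone, 19. With the actin covariate 47 of the 72 kept it. The causes of these shifts were not tested. With the replicate number as a block the count was 140, 116 of them shared. Same-numbered samples correlated at -0.08 to 0.32 in their deviations from group means, with 8 of 18 pairs over 0.1. Of 12 samples, 8 correlated best with their own number. The main fit did not use the numbers as pairs, and whether they mark a batch was not tested. With 3 arrays per group, differences of 0.3 were rarely recovered in simulated data (3.50%). Whether that rate holds for the real arrays was not tested.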

Other observations

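Genes of serine, one-carbon and purine synthesis, a list written after values had been seen, had positive differences throughout. Of 18 measured, 4 were called higher and 0 lower, and the median was 0.23 beside 0.03 over all genes. Of all 9487 genes, 5823 had a positive difference. Psat1 and Phgdh, which make serine, rose by 0.47 ± 0.080 and 0.44 ± 0.079 (limma adjusted p = 0.0213 and 0.0276). Gart and Pfas, enzymes of purine synthesis, rose by 0.33 ± 0.067 and 0.32 ± 0.066 (adjusted p = 0.043 and 0.0453). In the usual pairing these 4 were 0.30, 0.18, 0.16 and 0.10, and none passed. Psat1 read 8.95, 8.97 and 9.02 in XXsry males and 8.46, 8.66 and 8.40 in XY- females. Without XY- female replicate 2, 3 of the 18 were called, and leaving aside array weights, which called 13, the number ranged from 0 to 6 over the alternatives.

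Probe sets of the T cell receptor gamma chain had positive differences too. Trgv1 read 8.17, 8.30 and 8.38 in XXsry males and 7.79, 7.63 and 7.72 in XY- females, and rose by 0.57 ± 0.073 (adjusted p = 0.00382). The Trgv4 probe sets, named after their values were seen, rose by 0.59 ± 0.080 and 0.64 ± 0.092 (adjusted p = 0.00501 and 0.00801), and the third was 0.51 ± 0.109 (adjusted p = 0.0534). In the usual pairing Trgv1 was 0.18 ± 0.073 and did not pass (adjusted p = 0.235). Gamma chain segments are near-identical in part, so probe sets may read more than 1 of them.

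Other genes singled out after their values were seen rose in XXsry males. Cyp1b1, a cytochrome P450 that metabolises oestrogens, read 6.24, 5.99 and 6.17 against 5.46, 5.05 and 5.41, and rose by 0.83 ± 0.109 (adjusted p = 0.00461). Osmr, the receptor chain for oncostatin M, and Gas1 rose by 0.70 ± 0.126 and 0.65 ± 0.133 (adjusted p = 0.0276 and 0.0451), and neither was called without XY- female replicate 2. Alad, an enzyme of haem synthesis, rose by 0.42 ± 0.062 and the cell cycle kinase Cdk6 by 0.37 ± 0.066 (adjusted p = 0.0095 and 0.026). The chemokine Cxcl12 rose by 0.38 ± 0.066 on a probe set (adjusted p = 0.0235) that was not its brightest. The immediate early gene Btg2 was -0.57 ± 0.142 and did not pass (adjusted p = 0.0909).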
